A study of Mus musculus with 18 samples.

Results

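Broad accessible regions shared by wild-type and MyoD-null muscle cells of the mouse were described here, from ATAC-seq, an assay of the DNA that a transposase can reach and cut. The peaks of the 4 deposited lists on chromosomes 1 to 19 were merged where they overlapped by 1 bp or more, which gave 139354 regions. Of these, 64013 held a peak of every list, and 1002 of the 64013 had a merged width of 2000 bp or more. These 1002 broad regions made up 1.57% (95% Wilson interval 1.47 to 1.66) of the regions listed in all 4 groups and 4.22% of their bases, or 2.27 Mb. The 4 groups hold skeletal muscle cells of wild-type or MyoD-null mice, and each is 1 list called on the merged reads of 3 samples. Myoblasts of each genotype were taken without differentiation, and myocytes of each genotype after 24 h in differentiation conditions. How many animals gave the cells is not stated in the labels used here. Myoblasts are the proliferating precursors of muscle fibres, and myocytes are cells that have left the cycle and begun to differentiate. With 1 list for each group there is no error between replicates and no test, and all intervals cover counting error only.

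As background, a typical accessible site is a short stretch from which the nucleosome has been displaced by bound factors. Stretches that are accessible over a longer distance are known above all from CpG-rich promoters of widely used genes and from dense clusters of enhancers near genes of cell identity. MyoD is a basic helix-loop-helix factor that binds E-box sequences, opens chromatin at muscle genes and directs cells into the muscle lineage. The coordinates below are those of build mm9. Gene names, transcript start sites and sequences of that build were not used here, so the regions are named by position.

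The myocyte lists carry opposite genotypes in their labels and in their peak names. The peaks of the list labelled wild-type myocytes are named MKO-DM, where MKO marks the MyoD-null samples, and those of the list labelled MyoD-null myocytes are named WT-DM. The genotype of the labels is used below. The genome-wide background, in reads per base as recovered from the peak values, was 8.18 for wild-type myoblasts, 8.54 for MyoD-null myoblasts, 5.29 for myocytes labelled wild type and 6.34 for myocytes labelled MyoD-null. The lists also differed in the shortest gap that separated neighbouring peaks. That gap was 83 bp in MyoD-null myoblasts, 129 bp in wild-type myoblasts, 133 bp in the myocytes labelled MyoD-null and 146 bp in those labelled wild type.

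The regions were chosen by their width and by having a peak in every list, so these values are a description. The median merged width was 2189 bp, with quartiles of 2075 and 2364 bp, and 849 regions (84.7%) were narrower than 2500 bp. Only 28 regions reached 3000 bp, and the widest measured 3866 bp. The median over all regions listed in the 4 groups was 736 bp. Regions just inside the limit included chr11:44283124-44285123 (2000 bp), chr6:38383097-38385097 (2001 bp) and chr8:48372985-48374985 (2001 bp). Ties in width were taken in order of chromosome and start, so other regions of 2001 bp are not named. Just outside it, each 1 bp short of it, were chr2:168438121-168440119, chr3:21659379-21661377 and chr4:155108065-155110063. Folds over the 4 lists ran from 4.16 to 7.90 in the named regions just inside and from 3.35 to 7.99 in those named just outside. Among all merged regions of 2000 bp or more, whatever their lists, 1003 were found, so that 1 region alone failed the demand for a peak in every list.

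The merged width was seldom reached in every group. Peaks of the myocytes labelled wild type covered a median of 2051 bp of a broad region, with quartiles of 1910 and 2227 bp. The myocytes labelled MyoD-null covered a median of 1937 bp, wild-type myoblasts 1886 bp and MyoD-null myoblasts 1856 bp. Over all peaks of a list, inside broad regions or not, the myocytes labelled wild type also covered the most, at 66.3 Mb. The other lists covered 50.3 to 51.1 Mb. At least 2000 bp were covered in 603 regions (60.2%, 57.1 to 63.2) by the myocytes labelled wild type and in 399 (39.8%, 36.8 to 42.9) by the other myocytes. Wild-type myoblasts covered that much in 350 (34.9%, 32.0 to 37.9) and MyoD-null myoblasts in 299 (29.8%, 27.1 to 32.7). All 4 lists reached 2000 bp in 185 regions, exactly 1 list did so in 319, and in 254 regions (25.3%, 22.8 to 28.1) no list did. Counted from the first to the last base of a list's peaks, gaps included, no list reached 2000 bp in 132 regions.

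**Figure D1:**
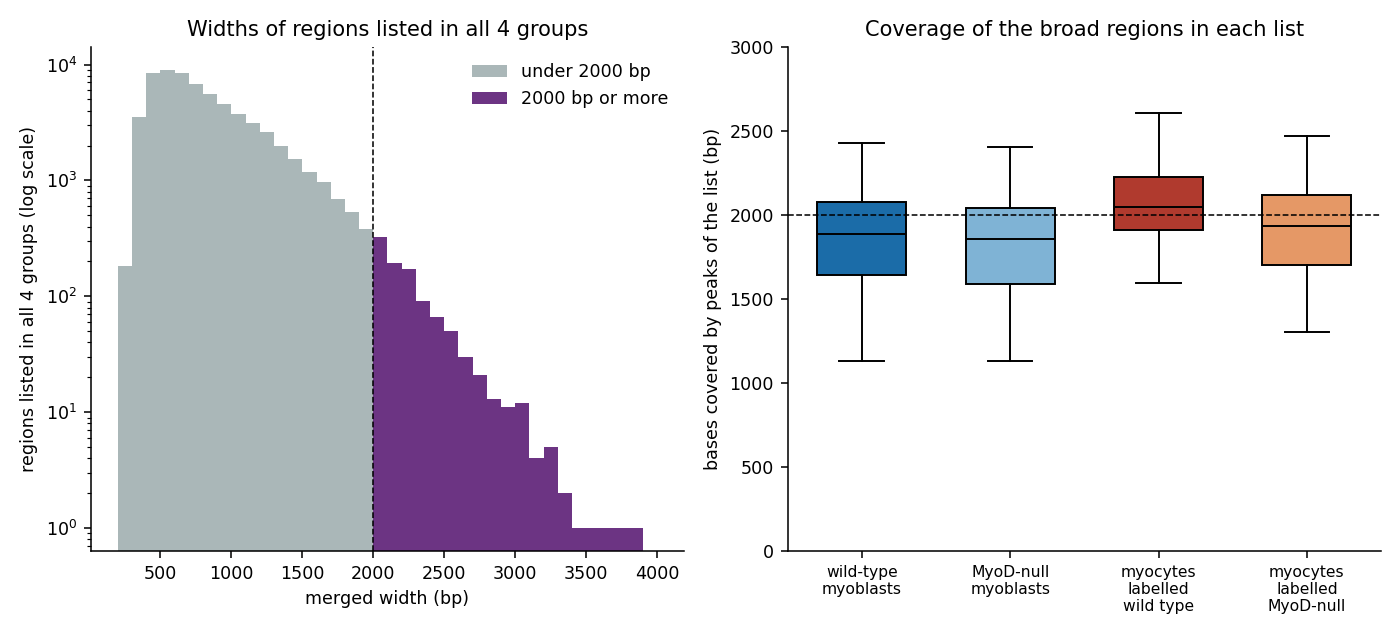
Left, number of regions listed in all 4 groups (log scale) by merged width in bins of 100 bp, with the limit of 2000 bp dashed and the 1002 broad regions in purple. Right, bases of a broad region covered by the peaks of each list (box, quartiles and median; whiskers, percentiles 5 to 95), where the median of the myocytes labelled wild type (2051 bp) is the only one above 2000 bp.

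A common core was nevertheless present in each region. Of all bases in the broad regions, 69.3% were covered by all 4 lists, 10.4% by 3, 9.16% by 2 and 11.2% by 1 list. The stretch covered by all 4 lists had a median of 1605 bp per region, its lowest value was 112 bp, and in 127 regions it was 2000 bp or more. The outer ends were set most often by 1 list, though not in most regions. The myocytes labelled wild type reached the left end of the merged region in 449 of 1002 regions and the right end in 434, against 174 to 226 for the other lists. Without this list, the merge of the other 3 gave 631 regions of 2000 bp or more, compared with 828 to 940 when any other single list was left out. The myocytes labelled wild type also had the most peaks of any list (109753, against 86575 to 100192) and the most bases in them. The larger cover of this list is thus not particular to the broad regions.

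Many broad regions were split into several peaks, more often in the myoblast than in the myocyte lists. In the myocytes labelled wild type, 739 regions (73.8%, 70.9 to 76.4) were a single peak, and in those labelled MyoD-null 708 (70.7%, 67.8 to 73.4) were. Wild-type myoblasts had a single peak in 503 regions (50.2%, 47.1 to 53.3), and MyoD-null myoblasts had one in 441 (44.0%, 41.0 to 47.1). The most frequent pattern was 1 peak in every list, in 277 regions (27.6%). Next came 2 peaks in both myoblast lists with 1 peak in both myocyte lists, in 110 regions. Both myocyte lists have a prefix in their peak names that is missing from the myoblast lists, so stage and processing cannot be told apart here. With all peaks of a list joined up to 146 bp apart, the longest of the shortest gaps, single-peak regions numbered 549 for wild-type myoblasts and 564 for MyoD-null myoblasts, among 1029 regions. The order of the myoblast genotypes thus changed with the gap, while both myocyte lists still had more, at 742 (labelled wild type) and 730 (labelled MyoD-null).

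The gaps inside broad regions often overlapped between the myoblast lists. Wild-type myoblasts had 563 such gaps with a median length of 244 bp, and 74.6% of them shared a base with a gap of MyoD-null myoblasts. Of the same gaps, 69.6% were bridged from end to end by a peak of the myocytes labelled wild type and 64.5% by one of the other myocytes. MyoD-null myoblasts bridged 19.9% of them. Of the 676 gaps in MyoD-null myoblasts, 62.4% shared a base with a gap of wild-type myoblasts and 33.9% were bridged by wild-type myoblasts. Of the 278 gaps in the myocytes labelled wild type, 56.1% shared a base with a gap of wild-type myoblasts and 22.3% with a gap of the other myocytes. By the merging rule every gap is crossed by some other list, so the rule shapes each of these shares and their sum is no finding.

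The widest region, chr10:94876951-94880816, shows this structure. It was listed as 1 peak covering 3189 bp in wild-type myoblasts, and as 3 peaks covering 3275 bp in MyoD-null myoblasts, 3351 bp in the myocytes labelled wild type and 3091 bp in those labelled MyoD-null. The summits of its highest-fold peaks, called highest summits here and below, lay up to 2300 bp apart between lists. In chr18:61556601-61560394 (3794 bp), all lists were split into 2 or 3 peaks, and 1605 bp were covered by all of them. By contrast, chr17:39980058-39983747 (3690 bp) was a single peak in each list, covering 3673 to 3687 bp, with nearly the same ends.

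Among the 10 widest regions, most peaks were listed at chr4:101026644-101029942 (3299 bp), which held 5 peaks in wild-type myoblasts, 4 in MyoD-null myoblasts, 2 in the myocytes labelled wild type and 4 in the others. There, 1065 bp were covered by all lists. The equally wide chr8:81551812-81555110 held 3, 5, 2 and 3 peaks in the same order. Of the others, chr1:88336238-88339734 (3497 bp) and chr11:69222057-69225625 (3569 bp) were single peaks in both myocyte lists and 2 or 3 peaks in myoblasts. In chr11:75273524-75276893 (3370 bp) and chr7:6680106-6683392 (3287 bp), 1 peak was listed in the myocytes labelled wild type and 2 or 3 in each other list. Finally, chr19:32460983-32464287 (3305 bp) held 2 to 4 peaks in every list.

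**Figure D2:**
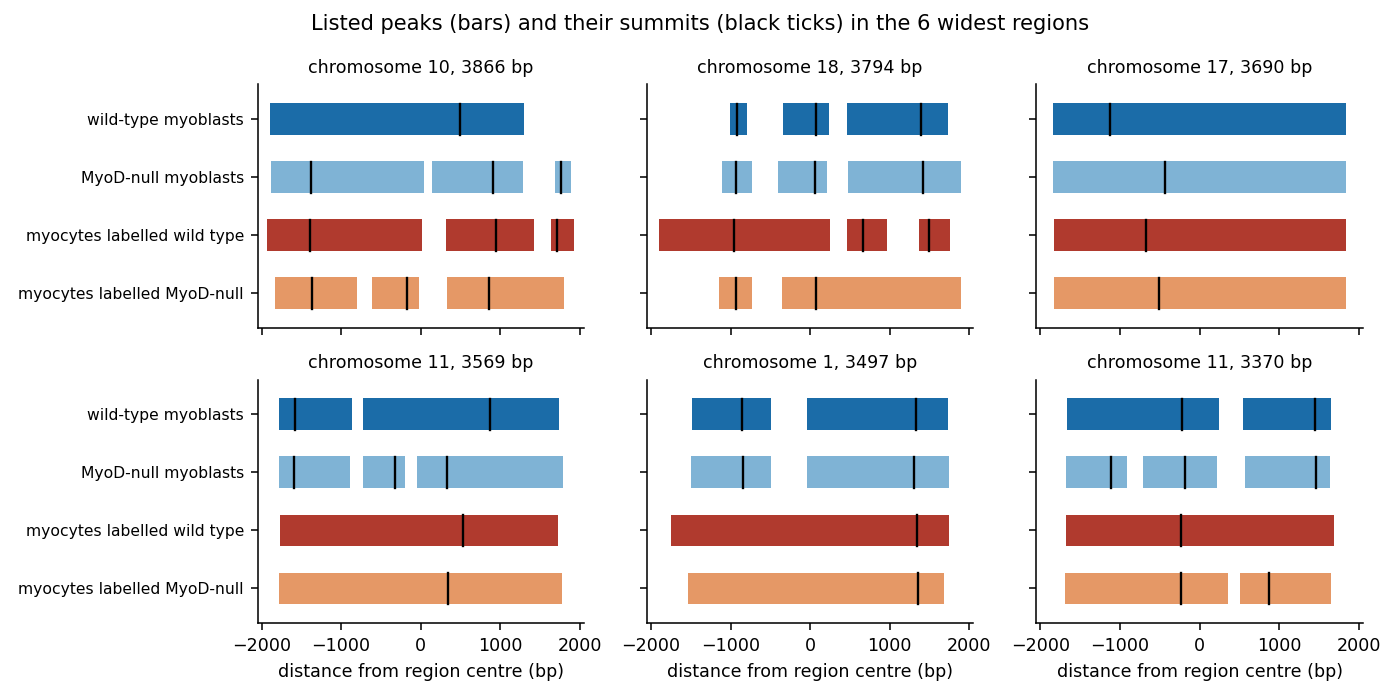
Peaks (bars) and their summits (black ticks) of the 4 lists in the 6 widest regions, by distance from the region's centre in bp. The region on chromosome 17 (3690 bp) is 1 peak in every list, and the other 5 are split in at least 1 list.

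Broad regions had tall summits on a raised local background. The number of reads covering a summit and the local background were recovered from the authors' fold enrichment and p-value of each peak, and for each region the peak of highest fold was used. The median summit held 108 reads in wild-type myoblasts, 114 in MyoD-null myoblasts, 127 in the myocytes labelled wild type and 123 in those labelled MyoD-null. Narrower regions listed in all 4 groups had medians of 55, 59, 61 and 56 reads, so broad summits were 1.92 to 2.19 times as tall within a list. Those of 1500 to below 2000 bp alone had medians of 101, 107, 121 and 115 reads, so tall summits are not particular to the broad regions. Ranked among the 64013 shared regions of the same list, the median broad region lay at percentile 87.3 to 87.8 for summit reads. In each list, 754 to 801 of the 1002 ranked above percentile 75.

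The local background around those summits was raised by nearly as much or more. Its median over broad regions was 2.61 times the genome-wide background for wild-type myoblasts and 2.60 times for MyoD-null ones, 4.20 times in the myocytes labelled wild type and 3.44 times in those labelled MyoD-null. In narrower regions the same medians were 1.41, 1.43, 1.70 and 1.48, and at 1500 to below 2000 bp they were 2.17, 2.15, 3.29 and 2.78. Only 0 to 4 broad regions per list had a summit over the plain genome-wide background, against 19.9% to 22.4% of narrower regions. At 1500 to below 2000 bp the share was 0.454% to 1.63%, so the raised background is not particular to the broad regions either. The samples hold no input control, and how far a region's own reads entered its local background was not tested.

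The authors' fold enrichment is the summit over this local background, and broad regions were ordinary on that scale. Median folds were 4.68 in wild-type myoblasts, 4.77 in MyoD-null myoblasts, 5.37 in the myocytes labelled wild type and 5.18 in the others. Narrower regions had 4.36, 4.40, 5.82 and 5.04. The median broad region ranked at percentile 57.0 for fold in wild-type myoblasts, 58.7 in MyoD-null myoblasts, 42.4 in the myocytes labelled wild type and 52.6 in those labelled MyoD-null. No broad region reached the highest 5% of folds in either myocyte list, whereas wild-type myoblasts had 2 such regions and MyoD-null myoblasts 7. Along the scale of width, fold was highest at 1000 to below 1500 bp in all lists (medians 5.35, 5.41, 7.01 and 6.35). The medians were 4.85, 4.95, 5.53 and 5.37 at 2000 to below 2500 bp and 4.12, 4.08, 4.36 and 4.42 in the 153 regions of 2500 bp or more. Width helped choose the members, so these values describe them and are not evidence for a difference.

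**Figure D3:**
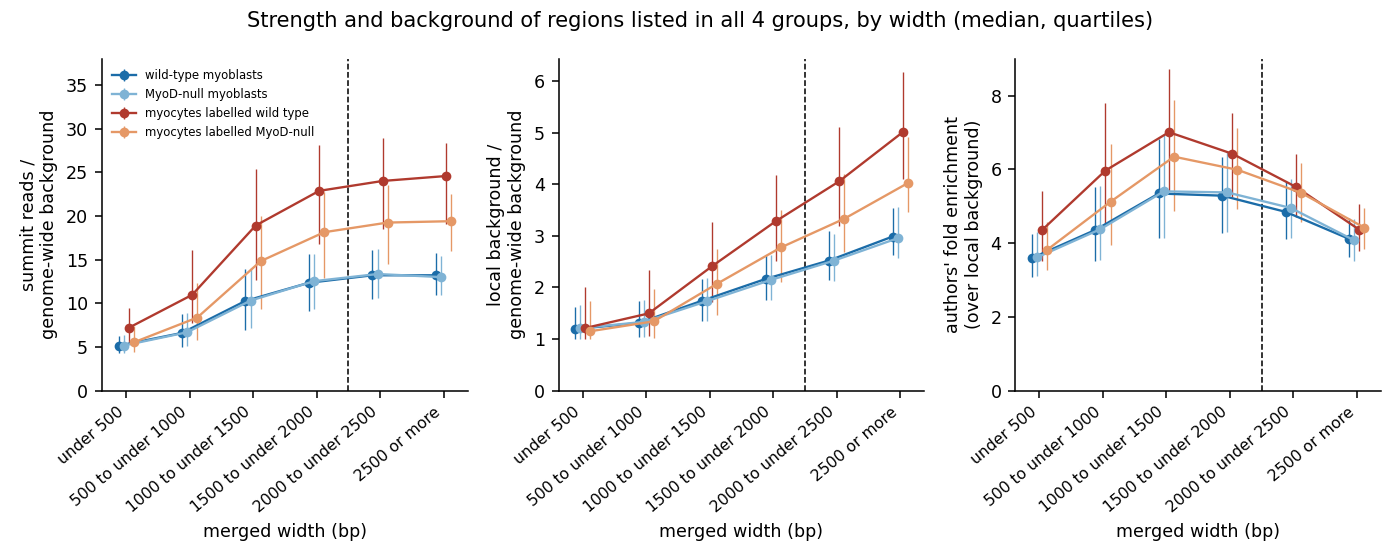
Summit reads over the genome-wide background, local over genome-wide background, and the authors' fold enrichment over the local background, by merged width in bp (points, medians; bars, quartiles) for the 4 lists, with the limit of 2000 bp dashed. Median summit height changes little beyond 1500 bp while the local background goes on growing, and the fold is highest at 1000 to below 1500 bp.

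The strongest broad region by mean log2 fold was chr9:121627464-121629490 (2027 bp). Its folds were 8.22 in wild-type myoblasts, 8.81 in MyoD-null myoblasts and 8.84 and 8.53 in the myocytes labelled wild type and labelled MyoD-null, with 163 to 201 summit reads. All 4 summits fell within 27 bp. The next were chr11:110926038-110928121, chr4:70195205-70197364, chr2:132088010-132090028 and chr3:142543862-142545864, with folds between 7.31 and 9.75 in every list. All 5 were 2003 to 2160 bp wide, close to the limit.

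At the other end, chr17:39980058-39983747 and chr11:3042933-3045159 had an exceptional background. In chr17:39980058-39983747 the folds were 2.03, 2.09, 2.07 and 2.07 in wild-type myoblasts, MyoD-null myoblasts, and the myocytes labelled wild type and labelled MyoD-null. Its summits held 336, 350, 310 and 317 reads over local backgrounds of 19.6 to 28.2 times the genome-wide level. These summits held the most reads of any broad region in each list. The lowest mean fold belonged to chr11:3042933-3045159 (2227 bp), with folds of 1.70, 1.70, 1.91 and 1.73 and local backgrounds of at least 10.7 times the genome-wide level. A local background of at least 6 times the genome-wide one in every list was found in 4 broad and 57 narrower regions. No list of repeats or of known artefact regions was applied, and their part in these values was not tested. The other regions of lowest fold were chr9:40614670-40616787, chr19:5793191-5795497 and chr19:9063270-9065441, all between 2.06 and 2.83 in every list. Their summits held 64 to 82, 68 to 98 and 112 to 146 reads. The local background of the chromosome 9 region was 2.69 times the genome-wide level in wild-type and 2.70 times in MyoD-null myoblasts. These lie near the medians of all broad regions (2.61 and 2.60). In the myocytes labelled wild type and labelled MyoD-null it was 5.78 and 5.76 times.

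Differences between lists were then compared at broad regions, for the question of how open chromatin changes on differentiation and on loss of MyoD. For each region the log2 ratio of the folds in 2 lists was centred on its median over all 64013 shared regions, and a ratio past 1.5-fold was counted. The same was done for summit reads over the genome-wide background, a measure added after the values were seen. It does not divide by the local background, but its summit is that of the highest-fold peak. The local background thus still enters the choice of the summit. The 4 comparisons share lists and are not independent. Both differentiation comparisons set a list with the prefix in its peak names against one without it. Stage and processing therefore cannot be told apart in them. Over all comparisons, 961 of the 1002 broad regions (95.9%) stayed within 1.5-fold of the typical fold ratio, against 78.5% of all shared regions. Broad summits hold more reads, and the part of depth in this contrast was not tested.

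In wild-type differentiation as deposited, broad regions lay below the typical shared region in fold ratio and slightly above it in summit height. Regions of 1500 to below 2000 bp did the same, with medians of -0.10 in fold and 0.11 in summit height, so this is not particular to the broad regions. The typical fold was 0.34 higher in myocytes on the log2 scale. Relative to this shift, broad regions had a median of -0.17 (quartiles -0.30 and -0.04), and 193 of 1002 (19.3%, 16.9 to 21.8) lay above it. Past 1.5-fold, 5 broad regions (0.499%) were higher and 28 (2.79%) lower, where 6.81% and 4.77% of all shared regions were. Without centring the median was 0.17, and 43 were higher and 1 was lower, against 24.8% and 0.642% of all shared regions. By summit reads over the genome-wide background the sign turned, with a typical shift of 0.71 and a median of 0.11 above it in broad regions, 72.7% of them higher. On that scale 49 broad regions were past 1.5-fold higher and 8 lower, against 9.85% and 10.6% of all. Local background itself was further above its typical shift of 0.26, by a median of 0.39.

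A few broad regions had a much taller summit in the myocytes labelled wild type than in the other lists. Over all broad regions, the median summit held 127 reads in that list and 108 to 122.5 in the others. These regions thus stood out by low summits in the other lists. At chr2:172882291-172884669 the summit held 42 reads in wild-type myoblasts, 45 in MyoD-null myoblasts, 142 in the myocytes labelled wild type and 45 in those labelled MyoD-null. The highest summits of the 4 lists lay up to 1444 bp apart there, so these reads were not all taken at the same position. No interval is set beside these reads, because the region was picked for its large ratio. The list with 142 reads had the lowest genome-wide background of the 4. This region was 1 peak of 2379 bp there and 689 to 1027 bp were covered in the other lists, so 2000 bp were covered only in the list where it is high.

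Similar values were seen at chr15:58999352-59001435, with 38 reads in wild-type myoblasts, 51 in MyoD-null myoblasts, 132 in the myocytes labelled wild type and 46 in the other myocytes. Its folds were 4.25, 5.45, 9.98 and 6.41, and the 4 summits fell within 14 bp. At chr14:64757797-64760024 the reads were 46, 55, 107 and 37 in the same order, and the folds 3.39, 3.98, 8.18 and 4.75. These were the 3 largest centred fold ratios in this direction (0.93 on chromosome 14, 0.89 on chromosome 15 and 0.80 on chromosome 2). In each, the myocytes labelled wild type lay above all other lists, whose folds were between 2.72 and 6.41.

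The largest ratios in the opposite direction came with similar read numbers. At chr7:134351091-134353099 the folds were 6.62 in wild-type myoblasts, 6.42 in MyoD-null myoblasts, 4.30 in the myocytes labelled wild type and 6.18 in those labelled MyoD-null. Its summits held 182, 180, 204 and 197 reads, while the local background was 8.82 times the genome-wide one in the myocytes labelled wild type and 3.18 to 4.90 times in the other lists. The centred fold ratio of -0.97 became 0.08 for summit reads over the genome-wide background. The next regions were chr9:40614670-40616787 (-0.80, or -0.08 by summit reads) and chr14:32018157-32020224 (-0.77, or 0.02).

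**Figure D4:**
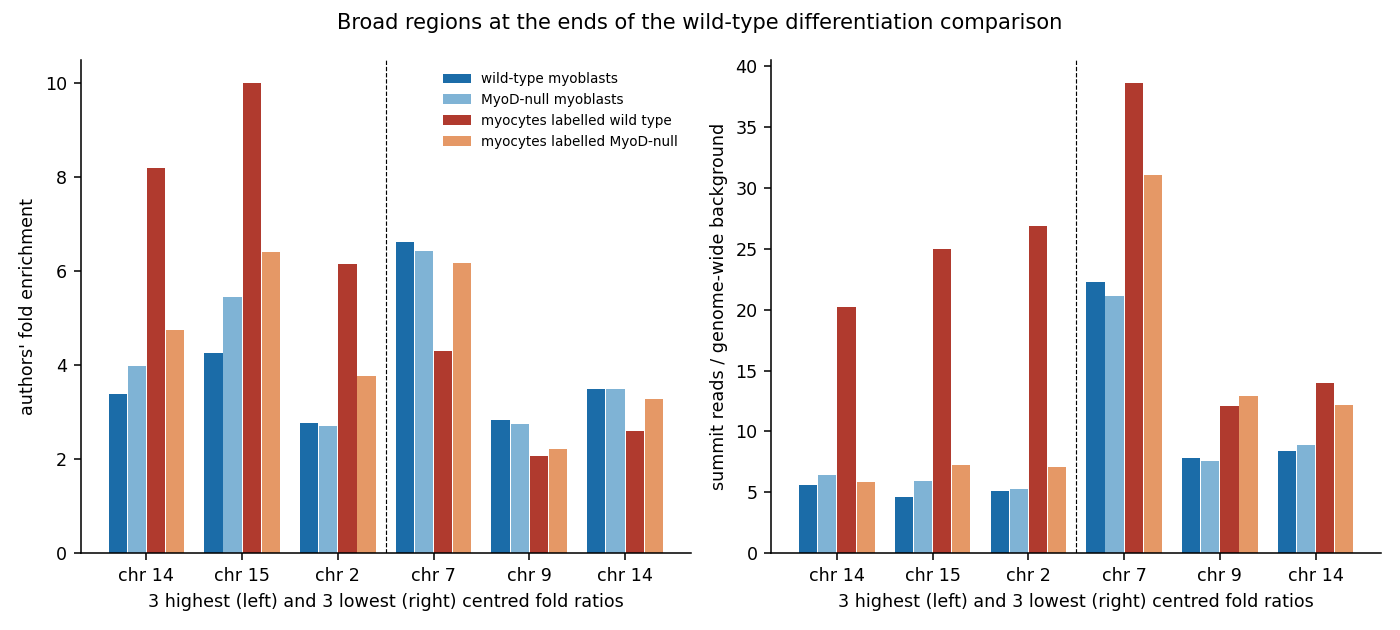
Authors' fold enrichment (left) and summit reads over the genome-wide background (right) in the 4 lists at the broad regions with the 3 highest and the 3 lowest centred fold ratios of wild-type differentiation as deposited. The regions on chromosomes 14, 15 and 2 at the left have lower summits in the other lists than in the myocytes labelled wild type. The low fold of the chromosome 7 region in those myocytes is not seen in its summit height.

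In MyoD-null differentiation as deposited, broad regions again lay below the typical fold ratio and above the typical ratio of summit reads. The typical fold shift was 0.17, and broad regions had a median of -0.07 relative to it (quartiles -0.19 and 0.05), with 335 of 1002 (33.4%, 30.6 to 36.4) above. Past 1.5-fold, 2 broad regions were higher and 2 lower, where 3.46% and 2.75% of all shared regions were. Uncentred, the median was 0.10, and 15 were higher and 0 lower, against 9.13% and 0.923% of all. By summit reads over the genome-wide background the typical shift was 0.37 and broad regions lay 0.14 above it, with 78.5% higher. Regions of 1500 to below 2000 bp had medians of -0.04 in fold and 0.14 in summit reads. On the scale of summit reads 13 broad regions were past 1.5-fold higher and 7 lower, against 4.51% and 9.07% of all.

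The largest centred ratio was 0.68 at chr7:143747008-143749052, where the fold was 3.77 in wild-type myoblasts, 3.84 in MyoD-null myoblasts and 6.95 and 6.92 in the myocytes labelled wild type and labelled MyoD-null. Its summits held 47 to 52 reads in all lists, over local backgrounds of 11.7 and 12.3 reads in the myoblast lists and 6.34 and 6.66 in the myocyte lists. Both myocyte lists were above both myoblast lists in fold, though the highest summits of this region lay up to 916 bp apart. By summit reads over the genome-wide background its centred ratio was 0.115, and 0.00681 in wild-type differentiation. The next in this direction were chr7:149684245-149686380 (0.67, or 0.82 by summit reads) and chr3:105253627-105256181 (0.57, or 0.08). Their highest summits lay up to 1040 and 1470 bp apart. In the opposite direction stood chr12:68321629-68323883 (-0.68), chr11:62363168-62365328 (-0.66) and chr3:129234999-129237441 (-0.56). The chromosome 12 region had 66 summit reads in wild-type myoblasts, 81 in MyoD-null myoblasts and 31 and 30 in the myocytes labelled wild type and labelled MyoD-null. It was lower in both myocyte lists by summit reads over the genome-wide background as well (-1.17 and -1.37). No broad region was past 1.5-fold in opposite directions in the differentiation comparisons. With 2 higher and 2 lower in MyoD-null differentiation, few could have been. The share over all shared regions was not counted, so this is no sign of agreement between genotypes.

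With genotypes read from the peak names, the differentiation comparisons exchange their myocyte lists. Wild-type differentiation then had a median of -0.07 over broad regions with 2 regions past 1.5-fold higher and 1 lower, where 3.07% and 2.44% of all shared regions were. MyoD-null differentiation had a median of -0.19, with 2 higher and 26 lower, against 7.03% and 4.94% of all. The sign of the median was the same under both readings for either genotype.

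Loss of MyoD in myoblasts, where labels and peak names give the same genotypes, went with the smallest differences. The typical fold shift was 0.01, and broad regions had a median of 0.01 relative to it (quartiles -0.06 and 0.08), with 53.2% (50.1 to 56.3) above. Past 1.5-fold, 1 broad region was higher in MyoD-null myoblasts and 0 lower, where 0.245% and 0.253% of all shared regions were. The counts were the same without centring, against 0.287% and 0.212% of all. The region was chr4:135690204-135692228, with a fold of 2.48 in wild-type myoblasts and 3.81 in MyoD-null ones, and 4.82 and 4.39 in the myocytes labelled wild type and labelled MyoD-null. Its highest summits lay up to 1382 bp apart. By summit reads over the genome-wide background its ratio was 0.12, and no broad region passed 1.5-fold on that scale, where 0.375% of all were higher and 0.406% lower.

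The next ratios in that direction were 0.39 at chr12:35876648-35878655 and 0.39 at chr1:33813107-33815691. The lowest were -0.40 at chr3:87786123-87788338, -0.35 at chr16:13446645-13448797 and -0.34 at chr17:31883360-31885691. Local background was also close between the myoblast lists, with a median ratio of -0.01 on the log2 scale.

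Between the myocyte lists, taken as MyoD-null over wild type as deposited, broad regions lay above the typical fold ratio. The typical shift was -0.15, and broad regions had a median of 0.10 relative to it and -0.05 without centring, with 749 of 1002 (74.8%, 72.0 to 77.3) above the typical ratio. Past 1.5-fold, 9 were higher and 1 lower, where 5.07% and 6.97% of all shared regions were. Uncentred, 2 were higher and 5 lower, against 2.5% and 12.4% of all. By summit reads over the genome-wide background the median was 0.03, and the calls turned to 3 higher and 29 lower, against 9.27% and 10.2% of all. Read by the peak names, all directions are exchanged.

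The region past 1.5-fold lower was chr14:64757797-64760024 (-0.63), described above. Next came chr10:39125719-39127927 (-0.55) and chr2:172882291-172884669 (-0.55). At the chromosome 10 region the summit held 46 reads in each myoblast list, 99 in the myocytes labelled wild type and 31 in those labelled MyoD-null. At least 2000 bp of it were covered only in the list with 99 reads (2038 bp, against 813 to 923 bp), and it was picked for its ratio. Its folds were 3.29, 3.69, 5.54 and 3.40, and its highest summits lay up to 1515 bp apart between lists. The highest ratios were 0.81 at chr4:151646576-151649280, 0.78 at chr2:29525414-29527645 and 0.70 at chr16:94757197-94759299. At the chromosome 16 region the summits held 158 reads in the myocytes labelled wild type and 129 in the others. Its local background was 5.39 and 2.46 times the genome-wide one, so the higher fold stood beside the lower summit.

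**Figure D5:**
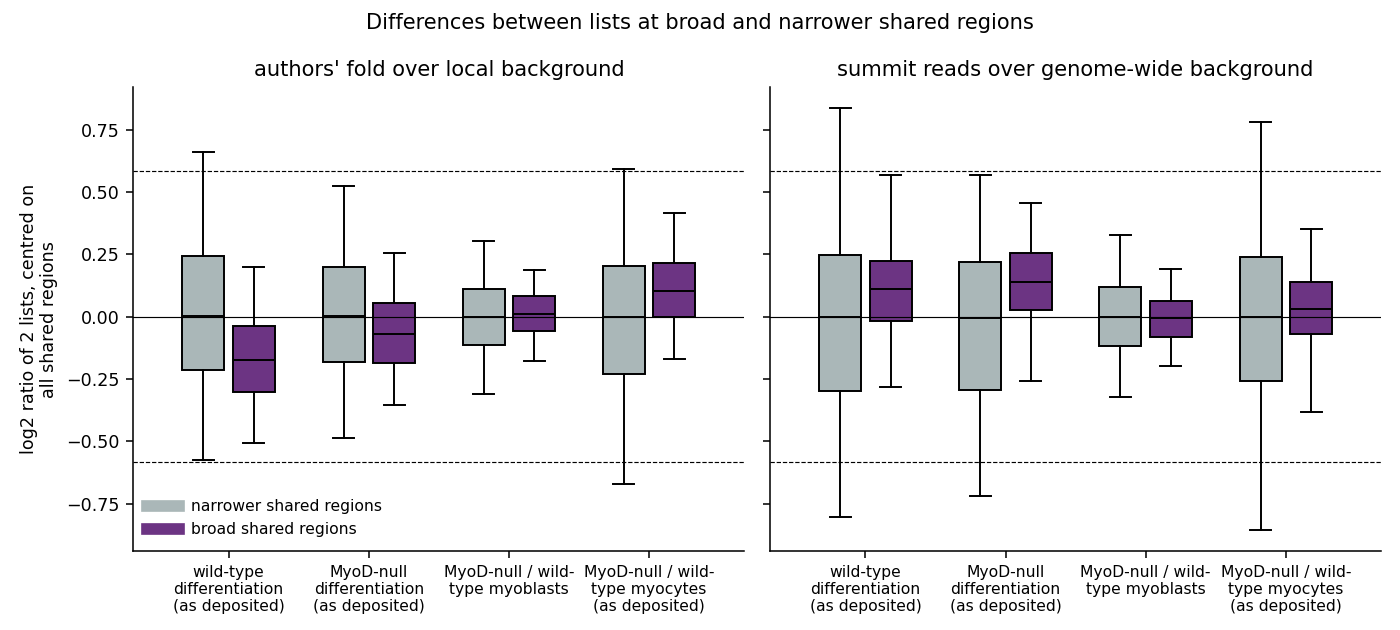
Log2 ratio of 2 lists, centred on all shared regions, for broad (purple) and narrower (grey) regions in the 4 comparisons (box, quartiles and median; whiskers, percentiles 5 to 95; dashed lines, 1.5-fold). For the authors' fold (left) broad regions lie below 0 in both differentiation comparisons (medians -0.17 and -0.07), and for summit reads over the genome-wide background (right) they lie above 0 (0.11 and 0.14).

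The spread of these ratios was smaller among broad regions. The SD over regions of the centred fold ratio was 0.22 at broad and 0.38 at narrower regions in wild-type differentiation, and 0.19 and 0.31 in MyoD-null differentiation. It was 0.12 and 0.19 between the myoblast lists and 0.18 and 0.38 between the myocyte lists. Regions of 1500 to below 2000 bp were close to the broad ones, with SDs of 0.24, 0.21, 0.13 and 0.22 in the same order. These are spreads over regions and not over replicates.

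The highest summits of the 4 lists, those of the highest-fold peak in each, coincided less often the wider the region was. All 4 summits fell within 100 bp in 452 of 1002 broad regions (45.1%, 42.1 to 48.2) and in 55.5% (55.1 to 55.9) of all narrower ones. The share was 48.8% (47.2 to 50.4) at 1500 to below 2000 bp, whose interval overlaps that of the broad regions. In 128 broad regions (12.8%, 10.8 to 15.0) they were spread over more than 1000 bp, which few narrower regions are long enough to allow. Between the myoblast lists, 757 broad regions (75.5%, 72.8 to 78.1) had their highest summits within 100 bp of each other. Between the myocyte lists it was 704 (70.3%, 67.4 to 73.0), and between a myoblast and a myocyte list 660 to 682 (65.9% to 68.1%). In narrower regions the same shares were 83.6%, 80.2% and 78.9% to 79.4%. The median distance between the summits of a pair of lists was 38 to 54 bp in broad and 36 to 44 bp in narrower regions. The highest summit lay a median of 458 to 494 bp from the centre of a broad region.

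Broad regions were found on all 19 autosomes and were mostly solitary. Their share among shared regions was highest on chromosome 19, with 45 of 1995 (2.26%, 1.69 to 3.00), and lowest on chromosome 6, with 37 of 3485 (1.06%, 0.771 to 1.46). The shares of the other 17 chromosomes lay between 1.30% and 1.99%. The median distance to the nearest other broad region was 476 kb, and 169 regions (16.9%, 14.7 to 19.3) had another within 100 kb. Of the 2187 windows of 1 Mb that held a shared region, 717 (32.8%) held a broad one.

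The fullest windows had 5 broad regions each. They were chr19:10000001-11000000, chr3:51000001-52000000, chr7:148000001-149000000, chr18:36000001-37000000 and chr15:85000001-86000000, with 77, 74, 67, 66 and 62 shared regions. The median over windows was 25 shared regions. In the chromosome 7 window, chr7:148653080-148655249 and chr7:148660858-148663131 lay within 10 kb of each other, with folds of 3.28 to 4.73 over the 4 lists. In the chromosome 3 window the highest fold, 9.52, was that of chr3:51079833-51081872 in the myocytes labelled wild type. This region had 7.22, 8.07 and 7.37 in wild-type myoblasts, MyoD-null myoblasts and the other myocytes.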

How the data were processed

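ATAC-seq peak lists of 4 groups of 3 samples were used. Per the submitters' processing notes the build was mm9 and the tools of the ATAC-seq samples MACS2 and deepTools; STAR is named for the RNA-seq samples only. For ATAC-seq the sources used here do not give the aligner, the peak-calling settings or the read shifting. The authors' peak names show that peaks were called on merged replicates. The deposited fold enrichment is a ratio of summit to local background, and the deposited −log10 p and −log10 q belong to each peak. The lowest −log10 q was 2.02.

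Regions were merged in Python 3.11.15 (numpy 2.4.6, pandas 2.3.3), and plots were drawn with matplotlib 3.10.9. Summit reads and local background are the whole number and the mean for which (reads + 1) / (background + 1) gives the deposited fold and the Poisson probability of more reads gives the deposited p (scipy 1.17.1). All peaks matched within 0.01 of −log10 p. The most frequent local background was taken as genome-wide; it may include mitochondrial reads, and read totals are unknown. Shares have 95% Wilson intervals (statsmodels 0.14.6). The steps were tested on simulated data.

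Named regions were the 10 widest, the 5 strongest and 5 weakest by mean log2 fold, the 3 largest centred ratios in each direction of each comparison, the 3 regions at each side of the width limit and the 3 fullest windows (5 tied, and the regions inside them were chosen after their values were seen). The members, rules and lists were chosen with earlier results of these data known. The planned gene lists, cell type markers, start sites and base composition were not run, because annotation and genome of mm9 were not used here. Coordinates count from 1. The 6 RNA-seq samples were not analysed here.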

Additional observations from a re-analysis of the deposited data

Results flagged for a closer look

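Chromosome X lies outside the rule for the broad regions. The same merging found 13 regions of 2000 bp or more there that were listed in all 4 groups, in data that the comparisons do not use. They made up 1.13% (95% Wilson interval 0.659 to 1.92) of the 1155 shared regions on this chromosome, and their widths ran from 2011 to 2851 bp. On the autosomes the share was 1.57%.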

How the results depend on the processing

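The 1002 broad regions became 4746 with a width limit of 1500 bp and 28 with 3000 bp. They were 283 with peaks of at least 5-fold enrichment, 185 if every list had to cover 2000 bp, and 631 without the myocytes labelled wild type. Other settings kept the count within 1.5 times (721 to 1029). With 250 bp in place of 100 bp, all 4 summits coincided in 65.6% of regions. Regions past 1.5-fold, 33 in wild-type differentiation, were 53 with the mean fold of the peaks, 0 past 2-fold, 3 at a width of 3000 bp, 3 with genotypes read from the peak names and 57 by summit reads over the genome-wide background. In MyoD-null differentiation the 4 became 15 without centring, 34 with the mean fold, 0 past 2-fold, 0 at 3000 bp, 28 by peak names and 20 by summit reads. Between myoblasts the 1 became 17 with the mean fold, 0 past 2-fold, 0 at 3000 bp and 0 by summit reads. Between myocytes the 10 became 45 with the mean fold, 0 past 2-fold, 0 at 3000 bp and 32 by summit reads. With the mean fold, broad regions higher and lower numbered 14 and 39 in wild-type differentiation, where 6.86% and 5.01% of all shared regions were. They numbered 17 and 17 in MyoD-null differentiation (3.71% and 3% of all), and 34 and 11 between myocytes (5.32% and 7.07%). Between myoblasts they numbered 9 and 8, where 0.373% and 0.411% of all were. Past 2-fold, the share of all shared regions was at most 1.34% in any direction, and 0% and 0.00781% between myoblasts. Only 28 regions are left at 3000 bp. The cause of the other changes was not tested. The joining of gaps and the summit reads were added after the data were seen. No paired analysis was possible because each group is 1 list of merged replicates. A region missing from a list was not detected at that depth.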

Other observations

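The region of 2000 bp or more that was not listed in every group was chr16:44215622-44217950 (2329 bp, mm9). The list labelled MyoD-null myocytes had no peak there, and the other 3 lists did.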
